A study of Mus musculus with 13 samples.

Results

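The genes described here are Dnmt3l, Uhrf1, Piwil2, Mael, Ddx4, Rhox5 and Rhox6, which are 2 cofactors of DNA methylation and 5 genes of the germline or of the reproductive homeobox cluster. They were chosen by name, as the probes whose annotation gives exactly 1 gene symbol and that symbol is one of these 7. All 7 genes were found, each with 1 probe, among 9669 named genes and 20205 probes. The study hybridised mouse total RNA to 13 two-colour arrays, each with a source called NT1 in one dye and a source called TBV in the other. By the title of the series, NT1 is homozygous mutant for Sall4 (-/-), which encodes a zinc finger transcription factor, whereas no allele is stated for TBV. Neither the cell type, nor how the allele was made, nor how many clones each name covers is stated in the labels. Positions of genes are those of RefSeq on GRCm38.p6, and where a probe lies within its gene was not analysed here. Arrays are grouped by their pair of sources. NT1p14 with TBVp13, called the p14 pair, was hybridised 5 times, and NT1p12 with TBVp12, called the p12 pair, 4 times. The unnumbered pair, NT1 1 with TBV2, and the check pair, NT1p12 with TBVp13, have 2 arrays each, and the check pair shares its sources with the p14 and p12 pairs. A p and its number are taken as the passage, which is not stated for the sources of the unnumbered pair.

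Cytosine methylation at CG pairs keeps many germline genes silent in embryonic and somatic cells. Dnmt3l has no catalytic activity of its own and stimulates the de novo methyltransferases Dnmt3a and Dnmt3b, whereas Uhrf1 binds hemimethylated DNA at the replication fork and recruits the maintenance enzyme Dnmt1. In male germ cells Piwil2, Mael and Ddx4 act in the piRNA pathway, in which small RNAs direct the silencing of transposons, and Rhox5 and Rhox6 encode X-linked homeobox proteins of the gonads and placenta. Promoters of several such germline genes are methylated and silent in the soma and are known to become active when methylation is lost.

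Promoter sequence shows how far these genes differ in the CG pairs that methylation acts on. The RefSeq table on mouse build GRCm38.p6 held windows for 5 of the 7 genes, Dnmt3l, Uhrf1, Mael, Ddx4 and Rhox5, each of 300 bases around an annotated start. The windows of Ddx4 (chr13:112652261-112652560, minus strand) and Mael (chr1:166238695-166238994, minus strand) are shown as CG-rich starts of germline genes. Those of Rhox5 (chrX:37754358-37754657, plus strand) and the first Dnmt3l start (chr10:78042037-78042336, plus strand) are shown as CG-poor starts for comparison. Each is written 5′ to 3′ on the gene's strand, and capitals mark CG pairs.
Ddx4: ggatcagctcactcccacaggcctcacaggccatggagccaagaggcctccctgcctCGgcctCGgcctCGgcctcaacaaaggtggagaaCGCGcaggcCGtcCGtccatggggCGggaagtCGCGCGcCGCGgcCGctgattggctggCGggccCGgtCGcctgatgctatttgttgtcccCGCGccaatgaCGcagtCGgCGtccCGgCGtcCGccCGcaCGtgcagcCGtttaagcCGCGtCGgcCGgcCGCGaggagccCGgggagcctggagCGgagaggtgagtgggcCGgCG
Mael: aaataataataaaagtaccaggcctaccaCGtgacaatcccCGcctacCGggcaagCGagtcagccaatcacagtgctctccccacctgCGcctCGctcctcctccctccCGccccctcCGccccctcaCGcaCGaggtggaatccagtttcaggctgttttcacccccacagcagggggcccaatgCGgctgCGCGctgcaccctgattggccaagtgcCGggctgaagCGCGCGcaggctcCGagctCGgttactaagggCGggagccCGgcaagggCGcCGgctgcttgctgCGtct
Rhox5: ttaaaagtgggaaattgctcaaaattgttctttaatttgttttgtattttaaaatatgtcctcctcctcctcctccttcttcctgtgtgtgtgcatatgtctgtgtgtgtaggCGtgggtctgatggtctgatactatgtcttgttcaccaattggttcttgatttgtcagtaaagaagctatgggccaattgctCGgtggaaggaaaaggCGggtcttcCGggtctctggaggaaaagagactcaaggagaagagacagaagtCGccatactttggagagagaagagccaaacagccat
Dnmt3l: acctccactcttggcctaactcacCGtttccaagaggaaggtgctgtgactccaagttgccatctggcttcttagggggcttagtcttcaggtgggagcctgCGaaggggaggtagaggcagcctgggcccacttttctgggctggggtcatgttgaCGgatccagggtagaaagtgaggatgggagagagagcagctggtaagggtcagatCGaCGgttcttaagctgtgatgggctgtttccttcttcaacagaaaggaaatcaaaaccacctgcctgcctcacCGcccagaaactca

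The Ddx4 window held 38 CG pairs, and 4.96% of 32817 mouse windows of the same length held at least as many. The Mael window held 24, a number reached by 20% of windows. Rhox5 had 5 CG pairs, below the median of 7 over all windows, and 38.1% of windows held fewer. CG-poor is used here for a count below this median. Dnmt3l had 6 at its first start, 4 at the second (chr10:78049592-78049891) and 3 at the last (chr10:78055085-78055384). Every annotated Dnmt3l start was thus CG-poor in this sense, although 43.6%, 31.4% and 23.3% of windows held fewer. Uhrf1 had 12 at one start (chr17:56303087-56303386) and 33 at the other (chr17:56304063-56304362). Among the germline genes the windows thus split into a CG-rich pair, Ddx4 and Mael, and the CG-poor Rhox5.

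**Figure D1:**
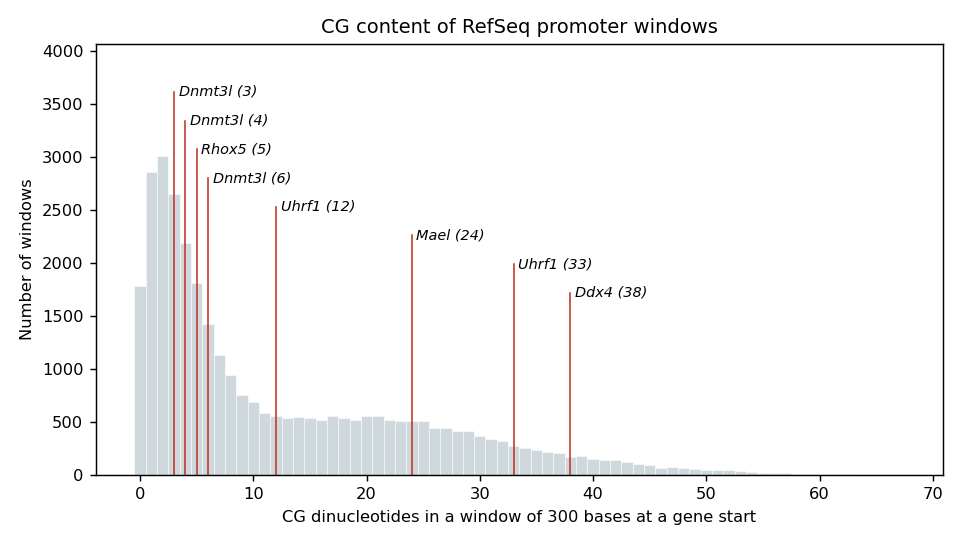
Number of CG pairs per 300-base promoter window in all 32817 RefSeq windows (histogram, number of windows on the y axis) with the windows of 5 genes marked. Ddx4 (38) and the second Uhrf1 start (33) lie well to the right of the median of 7, whereas Rhox5 (5) and the 3 Dnmt3l starts (6, 4 and 3) lie below it.

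Both letter strings searched in these windows are known as binding motifs of factors that repress germline genes in embryonic cells. CACGTG is the E-box bound by the Max and Mga proteins and reads the same on both strands, and TCCCGC is the core of the E2F motif bound by E2f6, searched on both strands. A CACGTG and a TCCCGC can share at most 1 base, at their ends. Ddx4 held 1 CACGTG at -29 from the start and 1 TCCCGC at -136. Mael held 1 CACGTG at -223 and 2 TCCCGC, the first at -143. The second Dnmt3l start held 1 CACGTG at -44, the first Uhrf1 start held 2 TCCCGC, and Rhox5 held neither. Of all windows 7.15% held CACGTG, 20% held TCCCGC and 1.99% held both, against 11.6%, 52.6% and 6.3% of the 6553 windows with at least 24 CG pairs. A match is a run of letters and not a measured binding site.

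The values bear on these genes with unequal precision, because part of the deposited values were whole numbers, read here as having lost their decimals. All 13 values of Dnmt3l and of Rhox5 were whole numbers, which held for 0.975% of probes with 13 values, as were 11 of 13 for Uhrf1, 8 of 11 for Mael and 3 of 12 for Piwil2. No value of Ddx4 or Rhox6 was whole. A whole 0 or 1 therefore stands for a range of ratios, and the share of whole numbers ran from 2.40% to 40.4% of the values of an array. Of 19859 values of size 1 or more in the series, 79 had decimals, so values of that size were nearly all whole. No value of Ddx4 or Rhox6 reached a size of 1. The values are read as log2 ratios of Cy5 over Cy3 and were turned to NT1 over TBV, so that a value above 0 means more signal from NT1. Neither the log base nor the numerator is given in the sources used here, so all signs may have to be turned together. Across 15973 probes, the p14 pair correlated at -0.50 with the p12 pair, although their dyes are labelled by the same rule. The direction of these pairs against each other is therefore not settled, and means are also given with the signs of the p14 pair turned. With the unnumbered pair, the p14 pair correlated at 0.12 and the p12 pair at -0.02. Which pair would have to be turned was not tested, and the p12 pair was not turned. A ratio of bulk RNA cannot tell fewer cells of a type from less RNA per cell.

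NT1 was first compared with TBV. No probe passed the limma test at an adjusted p of 0.05 among 15973 tested, which is 0%, and so none of the 7 genes did. An unadjusted p under 0.05 was reached by 164 probes, or 1.03%, and by 1 of the 7 genes, Dnmt3l. When all 13 arrays were used with their pair as a random block, 3 probes or 0.0188% passed, and with the arrays taken as independent 10 passed, none of them from these genes. The block was set on Cy5 over Cy3, where arrays of opposite orientation carry a pair's ratio with opposite signs. Its consensus correlation was -0.16, so it did not take up the spread between pairs. Both fits count arrays of the same RNA as replicates, those of the check pair included. The p-values of the main fit measure the spread among 3 pairs of RNA preparations, which may come from 1 line each.

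Dnmt3l (chr10:78042287-78063622) was above 0 in every independent pair, but not beyond the test's threshold. Its deposited whole numbers, turned to NT1 over TBV, were 0, 2, 1, 2 and 1 on the 5 arrays of the p14 pair. They were 0, 1, 1 and 0 on the 4 arrays of the p12 pair, 1 and 1 for the unnumbered pair, and 1 and 0 for the check pair. Thus 9 arrays lay above 0, 4 lay at 0 and none lay below, and the pairs overlapped in their array values. No array below 0 and at least 1 above was seen for 0.415% of probes with 13 values. A whole 0 counts here as not below 0, and 0.975% of these probes had whole numbers throughout, as Dnmt3l did. The share among such probes alone was not computed. With the signs of the p14 pair turned, 5 arrays lay above 0 and 4 below.

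The pair values of Dnmt3l were 1.17 in the p14 pair, 0.50 in the p12 pair and 1.00 in the unnumbered pair, with a mean log2 ratio of 0.89 ± 0.35 (SD, n = 3). The check pair, which shares both of its sources with other pairs, gave 0.50. Of all tested probes 0.394% had a mean at least as high, and the limma test gave an adjusted p of 1.00 after an unadjusted p of 0.0031, the rank 6 of 15973. Over all 13 arrays, limma gave an adjusted p of 0.17 when pairs formed a random block and of 0.12 when arrays were independent. Both of these fits count arrays of the same RNA as replicates. Both dye orientations gave nearly the same value, 0.95 from arrays with NT1 in Cy5 and 0.83 from arrays with TBV in Cy5. If the whole numbers were rounded to the nearest, the mean lies between 0.39 and 1.39, and if decimals were cut off it lies between 0.67 and 1.89. With the signs of the p14 pair turned, the mean was 0.11.

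Uhrf1 (chr17:56303337-56323486) lay on opposite sides of 0 in the pairs with passages. Its values were 0, 1, 0, 2 and 1 on the arrays of the p14 pair, all at or above 0. On the arrays of the p12 pair they were -1, -1, 0 and -1, all at or below 0. The unnumbered pair gave 0.49 and 0.13, and the check pair gave 0 and 0. The first pair and the second met only at 0, a whole number that stands for a range of ratios.

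The pair values of Uhrf1 were 0.75, -0.75 and 0.31 in the order above, with a mean log2 ratio of 0.10 ± 0.77 (SD, n = 3; limma, adjusted p = 1.00). Under rounding to the nearest, the p14 pair lies between 0.25 and 1.25 and the p12 pair between -1.25 and -0.25, so the lost decimals leave the opposite signs in place. With the signs of the first pair turned, the mean was -0.40.

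**Figure D2:**
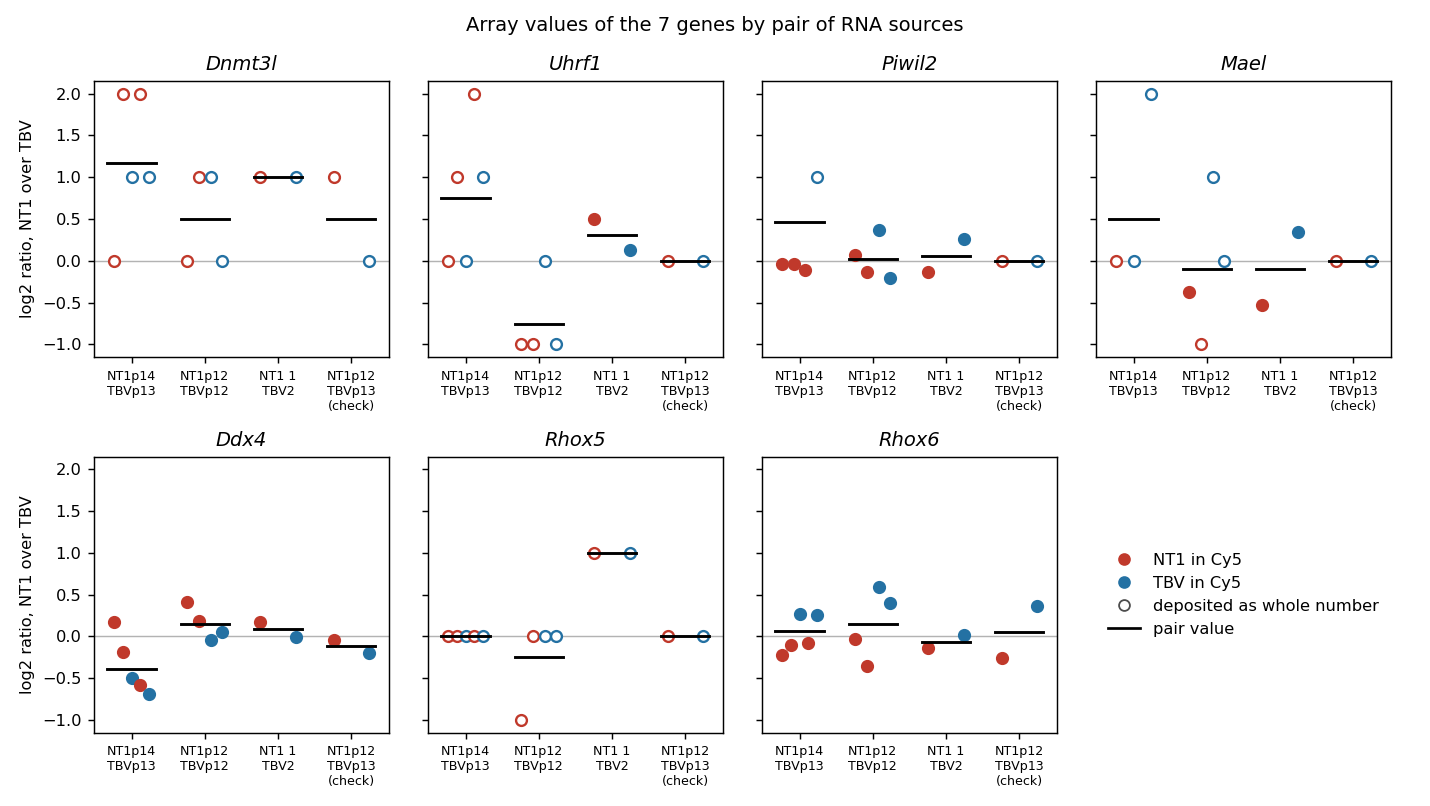
Log2 ratio of NT1 over TBV of each gene on each of the 13 arrays (points), by source pair, with the pair values as black lines. Colour gives the dye of NT1 (red for Cy5, blue for Cy3), and open symbols mark whole numbers, read as having lost their decimals. Dnmt3l has no point below 0, Uhrf1 lies at or above 0 in the p14 pair and at or below 0 in the p12 pair, and Rhox5 lies at 0 on most arrays.

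Of the piRNA pathway genes, Piwil2 (chr14:70372477-70436898) encodes the PIWI protein Mili, which binds piRNAs in fetal and adult germ cells. It had -0.04, -0.03, no value, -0.11 and 1 on the arrays of the p14 pair, so that the last array alone lay clearly above 0. The p12 pair gave 0.07, -0.13, 0.36 and -0.20, the unnumbered pair gave -0.14 and 0.25, and the check pair gave 0 and 0. The groups overlapped around 0. The pair values were 0.47, 0.02 and 0.06, with a mean of 0.18 ± 0.25 (SD, n = 3; limma, adjusted p = 1.00). The 0.47 rests on the last array, the one array of the p14 pair with TBV in Cy5 and a value, and without the p14 pair the mean was 0.041.

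Mael (chr1:166201385-166238744) encodes maelstrom, which is needed for transposon silencing during male meiosis. It had 0, no value, 0, no value and 2 in the p14 pair and -0.38, -1, 1 and 0 in the p12 pair. The unnumbered pair gave -0.53 and 0.34, and the check pair gave 0 and 0. Values above and below 0 thus occurred within 2 of the pairs. Its pair values were 0.50, -0.09 and -0.10, with a mean of 0.10 ± 0.34 (SD, n = 3; limma, adjusted p = 1.00), and the 0.50 of the first pair rests on a single array.

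Ddx4 (chr13:112598333-112652633), the mouse Vasa gene, encodes an RNA helicase that marks germ cells. Its values keep their decimals on every array, and were 0.18, -0.19, -0.49, -0.58 and -0.69 in the p14 pair. In the p12 pair they were 0.41, 0.18, -0.05 and 0.05. The unnumbered pair gave 0.18 and -0.01, and the check pair gave -0.04 and -0.19. Of the first pair 4 of 5 arrays lay below every array of the second, and the first array overlapped them.

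The pair values of Ddx4 were -0.39, 0.15 and 0.09, with a mean of -0.05 ± 0.30 (SD, n = 3; limma, adjusted p = 1.00). The check pair gave -0.12, between the pairs that hold its sources. Taken from differences between pairs that share a source, passage 14 minus passage 12 of NT1 came to -0.28 and passage 13 minus passage 12 of TBV to 0.27. Each is a difference of single preparations, with no test. These values and the place of the check pair rest on the labelled directions of the pairs. With its signs turned, the p14 pair gave 0.39, and the check pair then lay below both pairs that hold its sources.

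Rhox5 (chrX:37754608-37808878), also known as Pem, is expressed in the placenta and in Sertoli cells. It was 0 on all 5 arrays of the p14 pair, and -1, 0, 0 and 0 in the p12 pair. It was 1 on both arrays of the unnumbered pair and 0 on both of the check pair. As deposited, the unnumbered pair was the one above 0, on arrays of opposite dye orientation. Under rounding to the nearest, the p14 pair lies between -0.50 and 0.50 and the mean of the 3 pairs between -0.25 and 0.75, so the sign of the mean is not settled. The mean of the pair values 0, -0.25 and 1.00 was 0.25 ± 0.66 (SD, n = 3; limma, adjusted p = 1.00), and without the unnumbered pair it was -0.125.

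Rhox6 (chrX:37827055-37829857), also known as Psx1, is expressed in placenta and germ cells and has a near-identical neighbour, Rhox9, so that its probe may report either gene. It had -0.22, -0.10, 0.28, -0.08 and 0.26 in the p14 pair and -0.03, -0.36, 0.59 and 0.40 in the p12 pair. The unnumbered pair gave -0.14 and 0.02, and the check pair gave -0.26 and 0.37. All 7 arrays with NT1 in Cy5 lay below 0 and all 6 with TBV in Cy5 lay above 0, so its arrays separated by dye orientation. The pair values, in which a dye effect cancels, were 0.07, 0.15 and -0.06, with a mean of 0.05 ± 0.11 (SD, n = 3; limma, adjusted p = 1.00).

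Read together, 2 of the 7 genes, Dnmt3l and Piwil2, were above 0 in all 3 independent pairs, against 9.05% of tested probes, and none was below 0 in all 3, against 5.33%. Once the p14 pair was turned, these were other genes: Ddx4 was above 0 in all 3 pairs, as were 16.1% of tested probes, and Mael was below 0 in all 3, as were 14.3%. The medians of the 7 genes were 0.47 in the p14 pair, 0.02 in the p12 pair and 0.09 in the unnumbered pair. Over all tested probes the medians were 0, 0.04 and -0.0021 in the same order. Ordered by mean log2 ratio, Dnmt3l stood first with 0.89, followed by Rhox5, Piwil2, Uhrf1, Mael, Rhox6 and Ddx4, whose means ran from 0.25 to -0.05. Neighbours in this order differed by less than the larger of their SDs, Dnmt3l and Rhox5 included. The order rests on the labelled direction of the p14 pair. With its signs turned, Rhox5 stood first with 0.25, followed by Ddx4 (0.21), Dnmt3l (0.11), Rhox6 (0.0070), Piwil2 (-0.13), Mael (-0.23) and Uhrf1 (-0.40).

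The next comparison asked how much of a ratio belonged to the dye, measured as the mean of both orientations of Cy5 over Cy3. No probe passed an adjusted p of 0.05 in this limma fit, which is 0%, whereas 3868 probes or 24.2% had an unadjusted p under 0.05, among them 2 of the 7 genes, Mael and Rhox6. Mael had the clearest dye effect of the 7 genes, -0.51 ± 0.08 (SD, n = 3; limma, adjusted p = 0.14). Its ratio of NT1 over TBV was -0.41 from arrays with NT1 in Cy5 only and 0.61 from arrays with TBV in Cy5 only, so its sign differed between the orientations. Rhox6 had a dye effect of -0.21 ± 0.13 (SD, n = 3; limma, adjusted p = 0.20), and its Cy5 signal was the lower one on all 13 arrays, as for 0.388% of probes with 13 values.

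**Figure D3:**
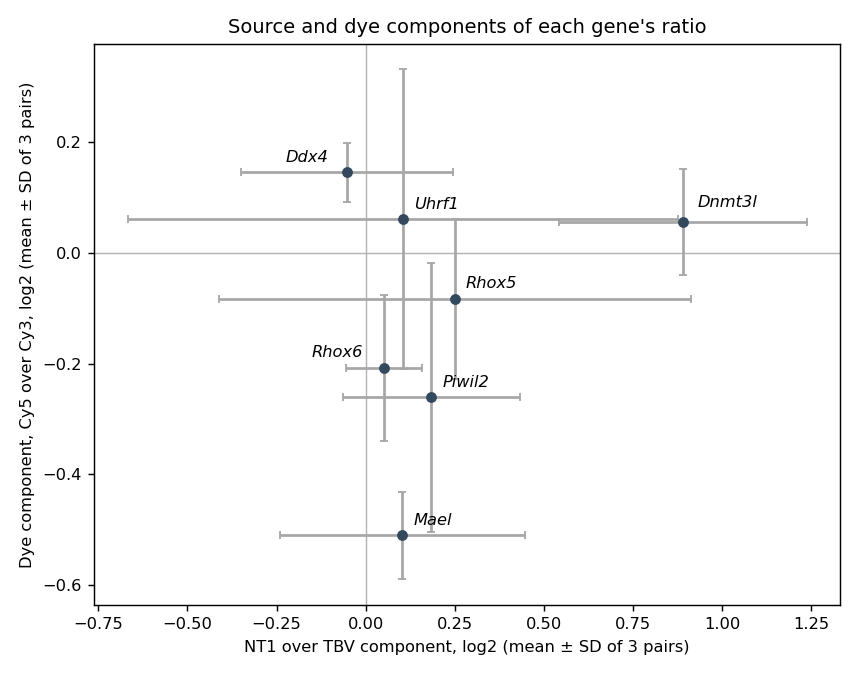
Effect of the source (x axis, log2 ratio of NT1 over TBV) against effect of the dye (y axis, log2 ratio of Cy5 over Cy3) for each gene, as the mean of 3 pairs with bars for the SD. As labelled, Dnmt3l lies furthest from 0 along the source axis at 0.89 (0.11 with the p14 pair turned) and near 0 on the dye axis (0.06), and Mael lies furthest along the dye axis at -0.51.

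Piwil2 had a dye effect of -0.26 ± 0.24 and Ddx4 one of 0.15 ± 0.05 (SD, n = 3). For Dnmt3l it was 0.06 ± 0.10, for Uhrf1 0.06 ± 0.27 and for Rhox5 -0.08 ± 0.14 (SD, n = 3). The dye effect of Dnmt3l and Rhox5 comes from whole numbers and has their coarseness.

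Since their values correlated below 0, the p14 and p12 pairs were compared directly on their 9 arrays, with a common dye effect. In this limma fit 1454 of 15973 probes, or 9.10%, passed an adjusted p of 0.05 and 36.8% an unadjusted p under 0.05. The error is that between arrays of the same RNA, which are technical repeats, so it does not cover the spread between preparations. None of the 7 genes passed the adjusted threshold, and 2 of them, Uhrf1 and Ddx4, passed the unadjusted one.

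Uhrf1 was 1.55 higher on the log2 scale in the ratio of the p14 pair than in that of the p12 pair (SE 0.45; limma, adjusted p = 0.058). Leaving out 1 of the 9 arrays at a time gave adjusted p from 0.039 to 0.16, and the difference passed without the first array of the p14 pair (1.75, adjusted p = 0.039) and without the third (1.82, adjusted p = 0.048). Ddx4 had a difference of -0.54 in the opposite direction (SE 0.17; limma, adjusted p = 0.068). It passed only without the first array of the p14 pair (-0.64, adjusted p = 0.034), and the range over all arrays left out was from 0.034 to 0.17. Both differences rest on the labelled direction of the p14 pair. With its signs turned, limma gave -0.045 for Uhrf1 (adjusted p = 0.98) and 0.24 for Ddx4 (adjusted p = 0.78), and none of 15973 probes passed the adjusted threshold, with 1160 at an unadjusted p under 0.05.

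The differences of the other genes were smaller against their error. Dnmt3l had 0.68 (SE 0.46; limma, adjusted p = 0.30), Mael 0.58 (SE 0.52; adjusted p = 0.45) and Piwil2 0.31 (SE 0.24; adjusted p = 0.36). Rhox5 had 0.27 (SE 0.21; limma, adjusted p = 0.37) and Rhox6 -0.07 (SE 0.13; adjusted p = 0.72). Single arrays decided several of these values. Without the last array of the p14 pair Piwil2 was -0.03 and Mael 0.09, without array 3 of that pair Mael was 1.09, and without the first array of the p12 pair Rhox5 was 0. For Dnmt3l the difference ran from 0.43 without the first array of the p12 pair to 1.00 without the first of the p14 pair. By sign alone, Uhrf1 and Mael were above 0 in the first pair and below 0 in the second, as were 32.6% of tested probes, and Ddx4 showed the reverse order, as did 38.8%.

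**Figure D4:**
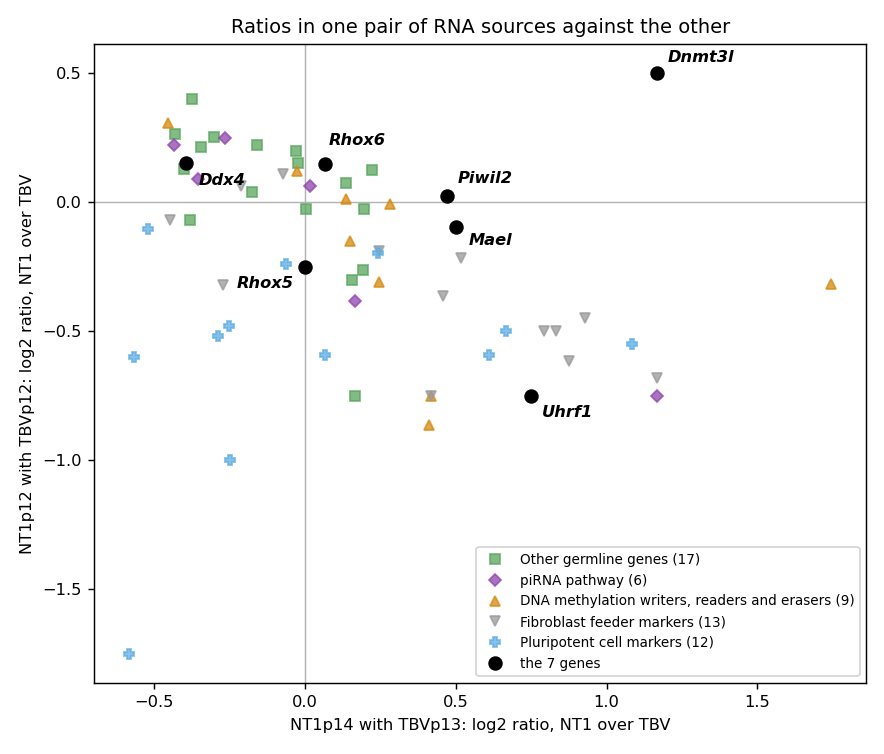
Log2 ratio of NT1 over TBV in the p14 pair (x axis) against that in the p12 pair (y axis) for the 7 genes (black, labelled) and for the measured genes of 5 lists (coloured symbols, with their number in the legend). Uhrf1 lies at 0.75 and -0.75, Ddx4 at -0.39 and 0.15, and Dnmt3l is above 0 on both axes (1.17 and 0.50).

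As labelled, fibroblast markers also took opposite signs in these pairs. Of 13 measured fibroblast markers, 9 were above 0 in the p14 pair and below 0 in the p12 pair, which is 69.2% against 35.1% of 7968 genes. As labelled, 1 of the 13 was below 0 in all 3 pairs. With the p14 pair turned, 8 of the 13 were, as were 1293 of 7968 genes. Their medians were 0.46, -0.36 and -0.56 in the 3 pairs, with single genes from -0.45 to 1.17, from -0.75 to 0.11 and from -1.50 to 0.29. Of 12 measured pluripotent cell markers, 6 (50%) were below 0 in all 3 pairs and none above, against 5.45% and 8.95% of 7968 genes, with medians of -0.16, -0.54 and -0.22. When the p14 pair was turned, 4 of the 12 were below 0 in all 3 pairs. The medians of 6 germ cell markers were 0.07, -0.05 and 0.01. Of 5 trophoblast markers, Krt18 (0.38), Cldn4 (0.33) and Krt19 (0.21) were above 0 in all 3 pairs, Lgals3 (-0.07) was below 0 in all 3, and Ascl2 (-0.03) had both signs; with the p14 pair turned, none was on one side of 0 in all 3. The part of these cell types in the values of Uhrf1, Ddx4 and the other genes was not tested. The table gives ratios and no levels, so whether any marker was present in both sources could not be read from it.

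Other genes of DNA methylation were taken from a list of 25 writers, readers and erasers, of which 9 had a value in all 3 pairs. None passed the test. In all 3 pairs 1 was above 0 (11.1%, against 8.95% of 7968 genes) and none below (against 5.45%). With the p14 pair turned, 1 was above and 3 below, against 1120 and 1293 of 7968 genes. The median of their means was 0.00, as over all genes. The highest and the lowest mean were those of Mbd1, a methyl-CpG binding protein, with 0.47 ± 1.12 (SD, n = 3), and of Dmap1, a partner of Dnmt1, with -0.19 ± 0.58 (SD, n = 3). Pcna, the sliding clamp of DNA replication, had 0.41, -0.86 and -0.05 in the 3 pairs as the average of 2 probes. These are the signs that Uhrf1 had in the first and second pair, but not in the third. Of the 9 genes 6 (66.7%) were above 0 in the first pair and below 0 in the second, against 35.1% of 7968 genes. Usp7, a deubiquitinase that binds Uhrf1 and Dnmt1, had 0.13 ± 0.12 (SD, n = 3) and was the gene above 0 in all 3 pairs. Dnmt3a, the enzyme that Dnmt3l stimulates, had 3 probes with means of -0.07, -0.0021 and 0.08.

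Among repressors of germline genes, 15 of 25 listed were measured and none passed the test. In all 3 pairs 1 was above 0 (6.67%, against 8.95% of 7968 genes) and 3 were below (20%, against 5.45%). With the p14 pair turned, 3 were above and 3 below, against 1120 and 1293 of 7968 genes. Zfp42, which encodes the pluripotency-associated zinc finger protein Rex1, had the lowest mean with -0.78 ± 0.89 (SD, n = 3), from -0.58, -1.75 and -0.01. Zfp57, a zinc finger protein that keeps methylation at imprinted loci, followed with -0.51 ± 0.38 (SD, n = 3) and was the gene of this list with an unadjusted limma p under 0.05. At the other end stood Rnf2 and Tfdp1, with means of 0.18 and 0.13, the former a ubiquitin ligase of a Polycomb complex and the latter the partner of E2F factors. The median of the 15 means was 0.00.

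Of 20 further genes listed with the piRNA pathway 6 were measured and none passed the test. A place on the list does not establish a role in the pathway, Tdrd3 included. Gpat2 (0.18 ± 0.96) and Gtsf1 (0.07 ± 0.07) had the highest means and Piwil1 (-0.11 ± 0.23) and Tdrd3 (-0.10 ± 0.33) the lowest, each over 3 pairs with SD. Gtsf1 alone was above 0 in all 3 (16.7%, against 8.95% of 7968 genes). Of 61 other germline genes 17 were measured and none passed the test. In all 3 pairs 2 were above 0 (11.8%, against 8.95% of 7968 genes) and 1 was below (5.88%, against 5.45%). Their means ran from -0.21 for Pgk2, the testis form of phosphoglycerate kinase, and -0.11 for Dppa5a to 0.16 for the protamine gene Prm1 and 0.17 for Tex13a. Turning the p14 pair gave other counts: 1 of the 6 genes of the piRNA list was above 0 in all 3 pairs and 1 below, and of the 17 germline genes 6 were above and 2 below. Of all 7968 genes, 1120 were then above 0 in all 3 pairs and 1293 below. Of the Rhox cluster beyond Rhox5 and Rhox6, no listed gene had a value in all 3 pairs.

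The probes most like Dnmt3l across the 13 arrays were found among 6473 named probes with a value on every array, by the root mean square difference of their log2 ratios of NT1 over TBV. They were Psme1 (0.48), a subunit of the proteasome activator, Ccdc74a (0.52), Utrn (0.55), which encodes utrophin, Mtdh (0.55) and Esrp1 (0.58), an epithelial splicing regulator. Psme1 and Mtdh also had whole numbers on all 13 arrays, Esrp1 on 6, and Ccdc74a and Utrn on 4. The likeness is a description over arrays that share RNA sources, and the whole numbers limit how finely it can be read.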

How the data were processed

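Mouse total RNA was hybridised to 13 two-colour arrays, per the labels. The authors deposited 1 value per probe and array, which was treated as a log2 ratio of Cy5 over Cy3; the log base, the numerator, the background correction and the normalisation are not given in the sources used here. Per array 14314 to 18381 probes had a value, with no intensities, so the number of arrays limits the precision. Probes were named through the platform annotation (11723 with 1 symbol, 806 with several, 7676 with none).

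Each array was centred on its median. A pair's value was the difference between its mean with NT1 in Cy5 and its mean with TBV in Cy5, divided by 2, and the sum of these means divided by 2 gave the dye effect. Arrays of the same RNA sources counted as 1 replicate, which left n = 3; the check pair entered no fit of n = 3. For the 15973 probes measured in each of the 3 pairs, lmFit and eBayes (limma 3.58.1, R 4.3.3) gave a two-sided test of the mean against 0, and p-values were adjusted over all of them by Benjamini-Hochberg (threshold 0.05). The direct comparison of the p14 pair against the p12 pair and the counts with the signs of the p14 pair turned were chosen after seeing the data. The fits were tested on simulated data. Python 3.11.15 and matplotlib 3.10.9 drew the figures.

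The rule for named genes was the 7 genes whatever their values, up to 4 genes per list with the smallest and largest means, and the 5 probes nearest to Dnmt3l; Dnmt3a was named for its link to Dnmt3l, and the trophoblast markers after their values were seen. The 7 genes and the lists were chosen with earlier results of these data known. Alternatives tried were other replicate units, a single dye orientation, other centring and scaling, other treatment of gaps and whole numbers, and leaving out a pair or an array.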

Additional observations from a re-analysis of the deposited data

Results flagged for a closer look

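Array values of each gene were searched within the pairs of 4 or 5 arrays for a single array far from the others (Dixon's criterion at 95%), in 13 groups of arrays, and 3 stood apart. Chance marks about 5% of groups of continuous values, a rate that does not hold for whole numbers, since 1 array that differs from tied values always stands apart. Uhrf1 was 0 on the third array of the p12 pair, against -1 on the other arrays of that pair. Piwil2 was 1 on the fifth array of the p14 pair, against values from -0.11 to -0.03 on the others. Rhox5 was -1 on the first array of the p12 pair, against 0 on the others. All 3 of these values are whole numbers, read as having lost their decimals, and the part of that loss in the gaps was not tested.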

How the results depend on the processing

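None of the 7 genes passed the adjusted threshold for NT1 against TBV in any of the 27 settings tried. Dnmt3l kept its sign in all 26 settings that gave it a value, from 0.11 to 1.08, and had no value with whole numbers left out. As no array of Dnmt3l lay below 0, settings that kept the labelled signs could hardly reverse it, so their number is no support. The 0.11 came with the p14 pair turned, from pair values of -1.17, 0.50 and 1.00 that differed in sign. Over all probes, 3 passed with the source pair as a random block and 10 with independent arrays, in fits that count arrays of the same RNA as replicates. Leaving out 1 pair gave 0 to 1 probes with a dye effect. The other genes changed sign, in means that had passed no test. From arrays with NT1 in Cy5 only, Ddx4 was 0.093, Mael -0.41, Piwil2 -0.077 and Rhox6 -0.16. With the signs of the p14 pair turned, Ddx4 was 0.21, Mael -0.23, Piwil2 -0.13 and Uhrf1 -0.40. As medians of arrays, Mael was -0.10 and Piwil2 -0.0033, and with arrays scaled to 1 spread Ddx4 was 0.016. Leaving out 1 pair or array gave -0.15 to 0.12 for Ddx4, -0.10 to 0.27 for Mael, -0.125 to 0.50 for Rhox5 and -0.22 to 0.53 for Uhrf1, and the difference between pairs of Piwil2 ran from -0.028 to 0.47. That difference with the p14 pair turned, added after seeing the data, was 0.24 for Ddx4, -1.68 for Dnmt3l, -0.39 for Mael, -0.36 for Piwil2 and -0.045 for Uhrf1. By construction, a value from arrays with NT1 in Cy5 only is the mean log2 ratio plus the dye effect of that gene. The cause of the other changes was not tested. The 3 independent pairs and the absence of intensities limit every value. Whole numbers, read here as having lost their decimals, limit those of the 7 genes except Ddx4 and Rhox6.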
